A study of Mus musculus with 4 samples.

Results

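Cells of the immortalised mouse microglial line N9 were compared after 10 µM nimodipine and after vehicle on Affymetrix arrays that report the expression of each gene on a log2 scale. Nimodipine, a drug of the dihydropyridine class, inhibits voltage-gated calcium channels of the L type. There were 4 arrays in all, 2 from cells given vehicle, 1 from cells given 10 µM and 1 from cells given 20 µM nimodipine. All cells were the same line in the same serum-containing medium. The labels give neither the length of the treatment nor the number of cultures, and a single line does not stand for microglia in tissue.

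The measure was the 10 µM array minus the mean of the vehicle arrays. The labels speak of a vehicle for each dose without saying which array is which, so the pair may be 2 different controls, and its difference may then hold more than replicate spread. Each of 22180 genes was represented by 1 probe set, and 3 of the 4 arrays enter the comparison. The spread against which a gene was read is the difference between the vehicle arrays. A limma fit on the vehicle arrays and the 10 µM array supplied adjusted p-values, with the vehicle pair giving the only residual degree of freedom, 1, so it assumes that a lone array varies as that pair does. In what follows, genes that rose or fell passed an adjusted p of 0.05 in this fit, and "higher" or "lower" alone describes a value. With 1 array at this dose, the dose and the array cannot be told apart.

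Microglia are the resident macrophages of the brain. They sense microbes, damage and neighbouring cells through pattern-recognition, chemoattractant, purine and Fc receptors, and respond with cytokines, while their division depends on growth factors such as those bound by Csf1r. Cells short of amino acids, or with unfolded protein in the endoplasmic reticulum, start the integrated stress response, in which phosphorylated eIF2α favours translation of the transcription factor Atf4.

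The 10 µM array stood apart from the other 3. Of the 22180 genes, 114 (0.514%) were higher by 1 or more, which is a doubling, and 234 (1.06%) were lower by as much. By the same threshold 19 genes (0.0857%) lay away from vehicle at 20 µM, and 25 genes (0.113%) differed between the vehicle arrays. The standard deviation of the differences over all genes was 0.34 at 10 µM and 0.21 at 20 µM. It was 0.23 for the vehicle pair, and the median difference at 10 µM was 0.01. The vehicle pair is a difference of single arrays, while each dose was read against the vehicle mean, so noise alone makes the pair's values wider. Only the 10 µM and 20 µM values are on the same scale. All 114 and all 234 genes lay beyond both vehicle arrays, and in 113 and 231 of them the vehicle gap was under 50% of the gene's own difference. The first count follows from the threshold: vehicle differences ran only from -1.55 to 1.38, so a gene past it must lie beyond both arrays. The second was largely set by it too, since the median size of the vehicle gap over all genes was 0.13. Neither count is separate evidence. Of the 114 and 234 genes, 1 in each direction was also past the same threshold at 20 µM, where the 114 had a median difference of 0.07 and the 234 one of -0.16. The limma fit called 113 genes (0.509%) that rose and 240 genes (1.08%) that fell. Which genes pass depends on the fit: with an intensity trend it called 384 and 785, and with dim genes left out, which keeps 12764, 400 and 882. Their p-values measure the spread between arrays that the labels do not describe as separate cultures.

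**Figure D1:**
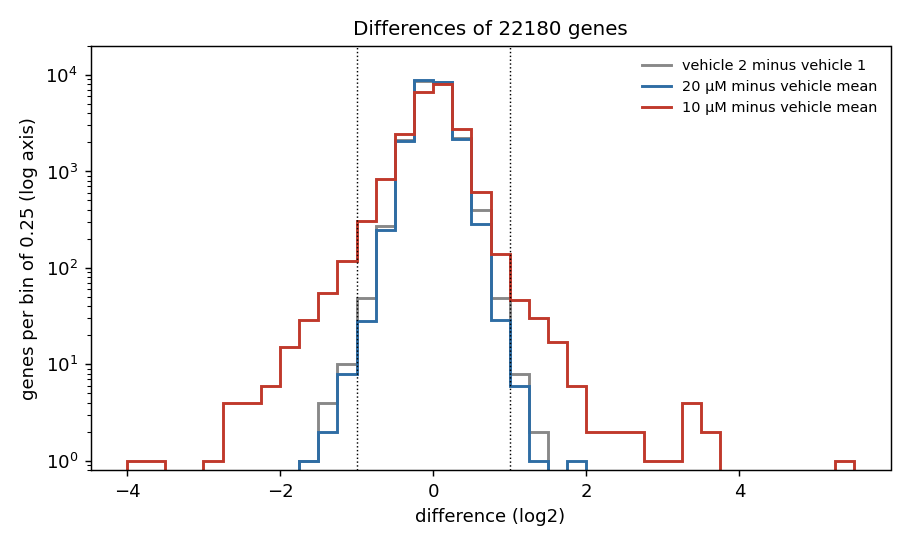
Histogram of the difference of each of 22180 genes on a log2 scale, in bins of 0.25, with a log axis for the number of genes. Red is the 10 µM array minus the vehicle mean, blue the 20 µM array minus the vehicle mean and grey vehicle 2 minus vehicle 1; beyond the dotted lines lie 234 genes on the low and 114 on the high side in red, 19 genes in blue and 25 in grey.

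The largest rise was that of Car6, a secreted carbonic anhydrase, which read 4.33 and 4.50 in vehicle, 9.74 at 10 µM and 5.13 at 20 µM. Lcn2, an iron-binding acute-phase protein, read 5.38 and 5.04, then 8.74 and 6.44, so the 20 µM array was also above vehicle, by less. Of the 7 genes that rose furthest, Ddit3 and Trib3 belong to the integrated stress response and Cth, which makes cysteine from cystathionine, to transsulfuration; their differences were 3.36, 3.25 and 3.24. Acot2, a mitochondrial enzyme that frees fatty acids from coenzyme A, read 9.52 and 9.13 in vehicle, 12.06 at 10 µM and 9.23 at 20 µM. Only the 10 µM array was high, 6.66-fold above the vehicle mean (difference 2.73, SE 0.20, limma adjusted p = 0.00936). Gbp8, a guanylate-binding protein of the interferon-inducible family, read 5.59 and 5.23 in vehicle, 8.76 at 10 µM and 5.56 at 20 µM, a rise of 3.35 (SE 0.19). Of the other members of that family list, Gbp10 rose by 0.95 and the rest did not pass the test, with Igtp lowest at -0.64. Ms4a6d, a membrane protein of macrophages, read 4.70 and 4.44 in vehicle, 7.43 at 10 µM and 5.10 at 20 µM, and Avil, an actin-severing protein related to gelsolin, read 5.32 on both vehicle arrays, 7.85 at 10 µM and 5.81 at 20 µM. Aoah, which removes acyl chains from bacterial lipopolysaccharide, rose by 1.94 (SE 0.20), with 6.20 and 5.83 in vehicle, 7.95 at 10 µM and 5.90 at 20 µM. Adh7, an alcohol and retinol dehydrogenase, rose by 1.80 (SE 0.14) and Cyb5r1, a cytochrome b5 reductase, by 1.91 (SE 0.16). For Car6 and Ms4a6d the vehicle mean, and for Egln3 and Adm described next the 10 µM value, lay below 5.04, the median of all deposited values, and RMA compresses differences near background, so their folds can be too small.

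The largest falls were those of Egln3, a prolyl hydroxylase of the hypoxia response, and Adm, which encodes the vasodilator peptide adrenomedullin. Egln3 read 8.35 and 8.91 in vehicle, 4.79 at 10 µM and 8.45 at 20 µM, and Adm read 8.61 and 8.44, then 4.93 and 8.53. Cytip, Themis2 and Klhl6, which stand in no list, were picked from the 20 lowest genes after their values were seen. Cytip, a scaffold that restrains cytohesin and so integrin adhesion, read 8.87 and 8.91 in vehicle, 6.06 at 10 µM and 8.72 at 20 µM, a fall of 7.10-fold (difference -2.83, SE 0.14, limma adjusted p = 0.00437). Themis2, an adaptor in macrophage and B-cell receptor signalling, read 8.30 and 8.25 in vehicle, 6.33 at 10 µM and 7.94 at 20 µM. Klhl6, a ubiquitin ligase adaptor of lymphoid and myeloid cells, read 8.61 and 8.96 in vehicle, 6.58 at 10 µM and 9.15 at 20 µM. In each of these genes the 10 µM array was the low one and the other 3 lay close together. Serpinb1a, an inhibitor of neutrophil proteases, had the widest vehicle pair of the 20 lowest genes, 8.36 and 9.21, beside 6.14 at 10 µM and 9.32 at 20 µM. The gene fell by 2.65 (SE 0.34), and the 10 µM array was below both. Ccng2, an atypical cyclin linked to cell cycle exit, read 9.07 and 8.93 in vehicle, 6.37 at 10 µM and 8.63 at 20 µM. Pde7b, a phosphodiesterase that breaks down cyclic AMP, fell by 1.91 (SE 0.14), and its value at 20 µM, 8.32, also lay below both vehicle arrays, at 9.07 and 9.02.

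**Figure D2:**
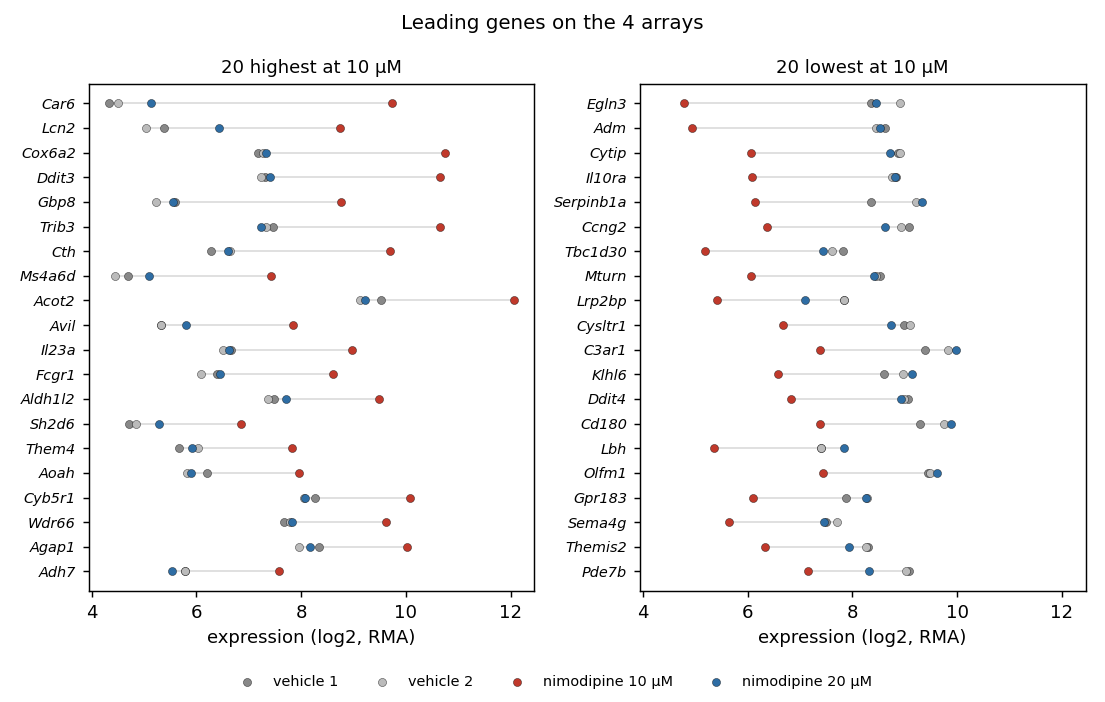
Expression on a log2 scale of the 20 genes highest (left) and the 20 lowest (right) at 10 µM against vehicle, 1 point per array. In each row the red point, the 10 µM array, lies apart from the grey vehicle points, and the blue 20 µM point lies nearer to them, for example Cytip at 6.06 beside 8.87, 8.91 and 8.72.

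Genes of the integrated stress response were among those higher. Of 26 regulators measured, 18 were higher and 8 lower, with a median difference of 0.40 beside 0.01 over all genes; 6 were higher by 1 or more and 1 lower. By limma 7 rose and 2 fell. Atf4, the transcription factor that drives the response, read 8.86 and 8.84 in vehicle, 10.33 at 10 µM and 8.87 at 20 µM. The 10 µM array was 2.79-fold above vehicle (difference 1.48, SE 0.14, adjusted p = 0.0197), and the other 3 arrays were nearly equal. Nupr1, a small stress-induced chromatin protein, read 8.31 and 8.59 in vehicle, 9.66 at 10 µM and 8.27 at 20 µM. Nfe2l1, which raises proteasome genes when proteasome capacity is short, read 8.02 and 7.97 in vehicle, 9.35 at 10 µM and 8.14 at 20 µM. Chac1, which degrades glutathione, and Ppp1r15a, which directs eIF2α dephosphorylation, rose by 1.01 and 0.98. Against the list, Ddit4, an inhibitor of mTORC1, read 9.06 and 8.99 in vehicle, 6.83 at 10 µM and 8.92 at 20 µM, and Eif2ak2, the kinase PKR that phosphorylates eIF2α in response to double-stranded RNA, read 8.0 and 7.98, then 7.04 and 7.90. Ddit4 is both a target of Atf4 and of hypoxia, and it stands in the hypoxia list too.

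The enzymes that make amino acids and their one-carbon units were mostly near vehicle, and a few members were far above it. Of 26 measured, 15 lay above and 11 below vehicle (median 0.11); 4 were higher by 1 or more, and the same number rose. Asns, which makes asparagine, read 8.97 and 8.96 in vehicle, 10.48 at 10 µM and 9.10 at 20 µM, a 2.85-fold rise (SE of the difference 0.14). Psph, the last enzyme of serine synthesis, read 7.02 and 6.92 in vehicle, 8.21 at 10 µM and 6.99 at 20 µM. Gpt2, the mitochondrial alanine transaminase, read 8.44 and 8.22, then 9.44 and 8.30. The fourth gene was Aldh1l2, which oxidises formyl-tetrahydrofolate in mitochondria, at 7.48 and 7.36 in vehicle, 9.49 at 10 µM and 7.71 at 20 µM. Their neighbours Phgdh, Shmt2 and Mthfd2, of the serine and mitochondrial folate steps, had differences of 0.53, 0.67 and 0.83 and did not pass the test.

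Most synthetases that charge transfer RNA in the cytosol were higher. Of 21 cytosolic synthetases, 17 were higher, with a median of 0.39, and 16 were above both vehicle arrays, beside 8665 of 22180 genes. Wars, for tryptophan, read 9.43 and 9.57 in vehicle, 11.02 at 10 µM and 9.50 at 20 µM and was the only one past 1. Yars, for tyrosine, rose by 0.96 (SE 0.15), while Eprs, Gars, Cars and Nars had differences between 0.79 and 0.86 that did not pass the test. Wars is also induced by interferon gamma. Qars, for glutamine, was 0.38 lower. Of 16 mitochondrial synthetases, 9 were lower, with a median of -0.16, beside 10556 of 22180 over all genes, and Pars2 fell by 0.94 (SE 0.14). The difference between the lists was not tested.

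Among amino acid transporters 15 of 26 were higher, with a median of 0.17, and 4 rose. Slc1a4, a carrier of alanine, serine and cysteine, read 5.77 and 5.75 in vehicle, 7.22 at 10 µM and 5.92 at 20 µM. Slc7a5, the light chain of the large neutral amino acid exchanger, read 9.58 and 9.49, then 10.60 and 9.28. Slc7a11, which imports cystine in exchange for glutamate, read 8.04 and 7.97 in vehicle, 9.25 at 10 µM and 8.08 at 20 µM; a dimmer probe set of the same gene differed by 0.25. Slc38a7, a lysosomal exporter of glutamine and asparagine, rose by 1.26 (SE 0.15). Slc43a2, a facilitative carrier of neutral amino acids, went the other way and fell by 0.95 (SE 0.15), and Slc38a2, a glutamine transporter, was 0.63 lower.

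Among genes of protein folding, few passed the test. Of 25 chaperones and folding enzymes of the endoplasmic reticulum 20 were higher, with a median of 0.22, and Hspa5, the chaperone BiP, was the only one to rise. Hspa5 read 10.25 and 10.36 in vehicle, 11.53 at 10 µM and 10.49 at 20 µM, while Hyou1, a co-chaperone of the same compartment, differed by 0.42 and did not pass the test. Among 37 genes of degradation and export from this compartment, Herpud1, a membrane component of the degradation complex, rose from 9.29 and 9.01 to 10.63, with 9.12 at 20 µM. Ern1, the sensor IRE1 of unfolded protein, was in no list and was picked after its values were seen; it read 8.48 and 8.51 in vehicle, 9.85 at 10 µM and 8.58 at 20 µM. Of 27 heat shock chaperones of the cytosol and mitochondrion, 0 passed 1 in either direction, and their differences ran from -0.58 to 0.63. Antioxidant genes under the factor NRF2 had a median of 0.28, with 22 of 29 higher. Sqstm1, the autophagy receptor p62, read 10.43 and 10.36, then 11.90 at 10 µM and 10.56 at 20 µM, and Gsta3, a glutathione transferase, rose by 1.34. Keap1, which holds NRF2 inactive, fell by 1.38 (SE 0.20), with a dimmer probe set at -0.40, and Hmox1, a haem-degrading NRF2 target, was 0.77 lower without passing the test.

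Promoter sequences show which of these genes carry the element that Atf4 and C/EBP proteins bind. In the RefSeq promoters of GRCm38.p6, which run from 250 bases before to 50 after the start site, TGATGNAA was searched on both strands. It was found in 3.97% of all 32851 promoters, in 3.39% of those of measured genes and in 10.5% of the 105 promoters of genes higher by 1 or more. Of the 15 stress, amino acid, synthetase and transporter genes higher by 1 or more, 12 had a promoter in the table. A match in any promoter of the gene was held by 6 of these 12, and by 17 of 78 over all measured members of those lists. Counted by promoter, as in the shares above, it was 6 of 16 and 18 of 98. The 3 below show a match on the gene's own strand, a pair in opposite directions, and a match on the other strand. They are printed from 130 bases before to 30 after the start, at chr6:7693180-7693339 (minus strand), chr3:50443584-50443743 (minus strand) and chr7:126625441-126625600 (minus strand), with the match in capitals. A match is a string of letters and not a measured binding site.
Asns: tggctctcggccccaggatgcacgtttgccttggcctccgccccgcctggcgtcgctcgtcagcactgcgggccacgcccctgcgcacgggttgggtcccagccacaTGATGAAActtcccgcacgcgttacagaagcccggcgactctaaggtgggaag
Slc7a11: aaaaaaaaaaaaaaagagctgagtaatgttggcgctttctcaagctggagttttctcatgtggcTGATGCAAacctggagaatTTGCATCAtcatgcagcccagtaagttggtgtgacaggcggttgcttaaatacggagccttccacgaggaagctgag
Nupr1: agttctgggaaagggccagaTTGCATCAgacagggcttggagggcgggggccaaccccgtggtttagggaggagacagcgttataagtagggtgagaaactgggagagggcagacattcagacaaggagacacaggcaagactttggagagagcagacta

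Genes induced by low oxygen were lower at 10 µM. Of 35 measured, 27 were lower, with a median of -0.41, and 26 were below both vehicle arrays, beside 7857 of 22180 genes. In the list 6 were lower by 1 or more and fell by limma, and 0 were higher by as much. Hypoxia-inducible factor is destroyed after prolyl hydroxylases such as Egln3 and Egln1 mark it, and these are its targets as well. Bnip3, a mitophagy receptor, read 10.82 and 10.42 in vehicle, 9.07 at 10 µM and 10.30 at 20 µM, a fall of 1.55 (SE 0.20). Selenbp1, a methanethiol oxidase, read 11.43 and 11.50, then 10.08 and 11.42. Ndrg1, a differentiation and stress gene, and Cited2, a co-factor that limits the hypoxia response, had differences of -0.86 and -0.93 and did not pass the test. Lonp1, a mitochondrial protease, was 0.76 higher. Egln1 and Hif1a, the regulated subunit of the factor, were looked at after the other values were seen and had differences of -0.85 and 0.25, which did not pass either.

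The glycolysis list overlaps with these targets and had a median of -0.40, with 25 of 31 members lower and 6 that fell. Eno3, the enolase best known from muscle, read 9.78 and 9.80 in vehicle, 8.51 at 10 µM and 9.66 at 20 µM. Pdk2, a kinase that switches off pyruvate dehydrogenase, read 8.10 and 7.85, then 6.81 and 7.44, so the 20 µM array was also below vehicle, by less. Slc2a1, the glucose transporter, read 12.51 and 12.45 in vehicle, 10.70 at 10 µM and 12.35 at 20 µM, and a dimmer probe set of it differed by -0.47. Of the second probe set of Pdk1, the difference was -0.10 beside -1.28 in the brighter one, so this gene rests on 1 probe set. Gapdh and Pgk1, successive enzymes in the middle of the pathway picked after their values were seen, differed by -0.12 and -0.39 and did not pass the test. Of 29 genes of the citric acid cycle and pyruvate dehydrogenase, 0 were past 1, and the differences ran from -0.78 for Idh1 to 0.34 for Sdhb.

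The hypoxia response core ACGTG was searched on both strands and counted once per strand where it forms the palindrome CACGTG. It is a frequent string: 19.6% of all promoters held it, as did 21.4% of those of measured genes. Of the 252 promoters of genes lower by 1 or more, 23% held it. Of the 11 hypoxia and glycolysis genes lower by 1 or more, all had a promoter in the table and 8 held a match. Over all measured members with a promoter it was 37 of 57. Counted by promoter, it was 8 of 13 and 40 of 77. The core was also held by 6 of the 12 stress, amino acid, synthetase and transporter genes higher by 1 or more with a promoter. A match therefore does not by itself mark a gene that was lower. The promoters of Slc2a1 at chr4:119108615-119108774 (plus strand), Hk2 at chr6:82774425-82774584 (minus strand) and Bnip3 at chr7:138909477-138909636 (minus strand) are shown as before, since they belong to a transporter, the first enzyme of glycolysis and a mitophagy gene. The Bnip3 match reads the same on both strands.
Slc2a1: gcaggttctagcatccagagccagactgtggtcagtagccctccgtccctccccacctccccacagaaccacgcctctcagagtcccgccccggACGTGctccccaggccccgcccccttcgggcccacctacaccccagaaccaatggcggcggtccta
Hk2: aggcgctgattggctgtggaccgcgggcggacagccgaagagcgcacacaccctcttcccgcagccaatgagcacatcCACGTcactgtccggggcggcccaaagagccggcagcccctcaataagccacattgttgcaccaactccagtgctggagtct
Bnip3: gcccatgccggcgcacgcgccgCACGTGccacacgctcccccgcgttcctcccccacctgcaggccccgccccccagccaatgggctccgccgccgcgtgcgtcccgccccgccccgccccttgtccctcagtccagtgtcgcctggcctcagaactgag

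**Figure D3:**
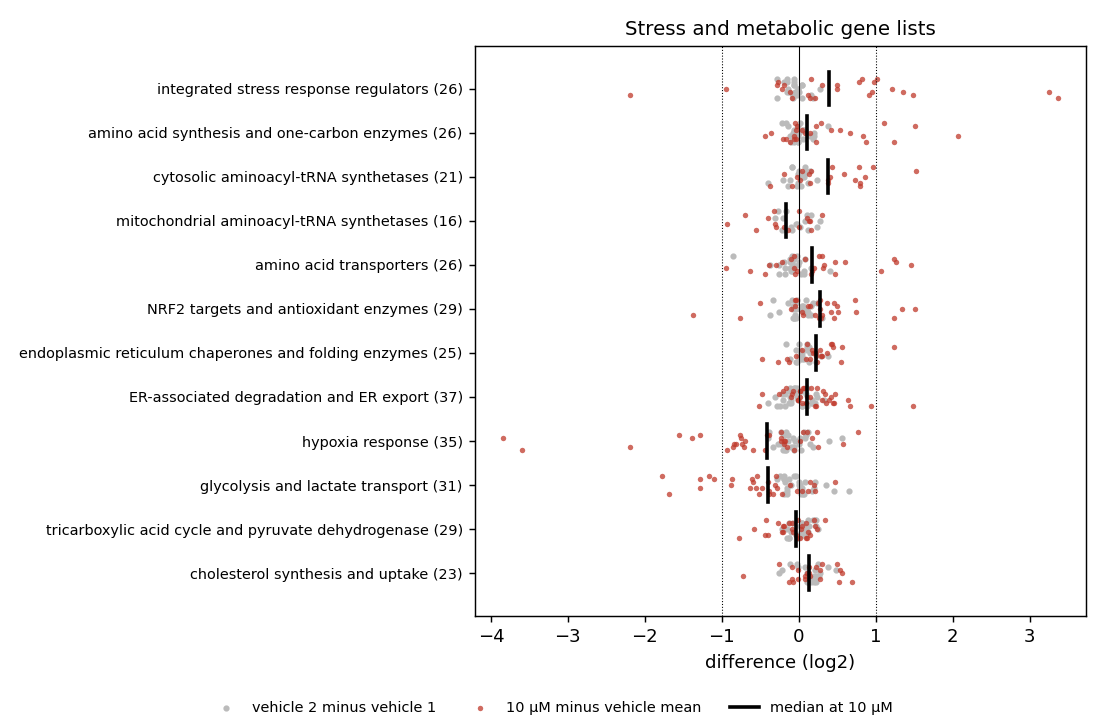
Differences on a log2 scale for every measured member of 12 stress and metabolic lists, with the number of members in brackets. Red points are 10 µM minus the vehicle mean, grey points vehicle 2 minus vehicle 1 and black bars the medians at 10 µM, which run from -0.41 for the hypoxia response to 0.40 for stress response regulators; the dotted lines mark -1 and 1.

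The genes of mitosis formed the class with the most members past the threshold. Of 42 mitotic kinases, cyclins and anaphase regulators, 41 were lower at 10 µM and all 41 lay below both vehicle arrays, beside 7857 of 22180 genes. The list's median was -0.86, 16 members were lower by 1 or more, and 16 fell by limma. The spindle, centrosome and condensin list had 44 of 45 members lower, a median of -0.78 and 15 past 1, and the kinetochore and spindle checkpoint list 32 of 37, a median of -0.50 and 6 past 1. In these lists vehicle 2 was above vehicle 1 by a median of 0.14, 0.15 and 0.16, and the 20 µM array was below the vehicle mean by a median of 0.12, 0.12 and 0.10. Mastl, the kinase Greatwall that holds off the phosphatase PP2A in mitosis, read 8.14 and 8.24 in vehicle, 6.47 at 10 µM and 7.80 at 20 µM, a 3.29-fold fall (difference -1.72, SE 0.15, adjusted p = 0.0146). Cdc25c, the phosphatase that activates Cdk1, read 7.69 and 8.11, then 6.49 and 7.79. Bora, an activator of Aurora A, fell by 1.19, Ect2 and Prc1, both needed for cytokinesis, by 1.30 and 1.22, and Cdkn3, a Cdk phosphatase, by 1.30. Only Anapc1, a subunit of the anaphase-promoting complex, was on the other side of 0, with a difference of 0.04.

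In the spindle, centrosome and condensin list 14 of 45 genes fell. Aspm, which organises spindle poles, read 9.10 and 9.16 in vehicle, 7.48 at 10 µM and 8.95 at 20 µM, and Depdc1a, a mitotic regulator, read 8.15 and 8.34, then 6.55 and 7.83. The kinesins Kif14 and Kif20b fell by 1.29 and 1.25. The condensin subunit Ncapd2 fell by 1.30, and Ncaph fell by 1.27. At the kinetochore the checkpoint kinase Ttk read 8.45 and 8.55 in vehicle, 7.30 at 10 µM and 8.40 at 20 µM, and Ndc80, which binds microtubules, read 9.07 and 9.24, then 8.02 and 8.93. In both the 10 µM array was the lowest of the 4. Cenpe and Cenpf fell by 1.18 and 1.13, and the centromeric histone Cenpa by 1.01. Of the 5 kinetochore members on the other side of 0, the widest were Mad2l1, a checkpoint protein, at 7.87 and 8.35 in vehicle and 8.88 at 10 µM, and Zwint, 0.22 higher; neither passed the test. In a bulk sample, fewer cells in mitosis and less of these transcripts in each cell cannot be told apart.

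Genes of the earlier cell cycle differed less. Of 52 genes of DNA replication, 38 were lower, with a median of -0.19, and 0 passed 1 or the limma test in either direction. The replicative helicase subunits went both ways: Mcm2 read 8.29 and 8.63 in vehicle and 9.40 at 10 µM, a difference of 0.94, and Mcm7 read 9.11 and 9.35, then 8.47, a difference of -0.76. Nucleotide synthesis genes had a median of -0.10, with 0 past 1 among 29, and DNA repair genes one of -0.18, with 1 of 45 past 1, the crosslink repair gene Fancd2 at -1.06. Histone genes had a median of 0.09 over 36 members. In the list of G1 regulators the 3 genes that fell were brakes on the cycle: Cdkn2c, an inhibitor of Cdk4 and Cdk6, read 7.58 and 7.54 in vehicle, 6.18 at 10 µM and 7.32 at 20 µM, Mxd4, an antagonist of Myc, read 8.51 and 8.47, then 7.30 and 8.23, and Btg2, an antiproliferative immediate early gene, read 8.94 and 8.61, then 6.96 and 8.51. All 3 had the 10 µM array as the lowest.

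Mitotic promoters commonly carry the cell cycle homology region, searched here as TTTGAA on both strands. The string was in 17.9% of all promoters and in 22.6% of the 252 promoters of genes lower by 1 or more. Of the 37 mitotic, spindle and kinetochore genes lower by 1 or more, 31 had a promoter in the table and 23 of these genes held the string. Over all measured members with a promoter it was 58 of 105. Counted by promoter, it was 25 of 34 and 62 of 115. CCAAT was in 37.4% of all promoters and likewise in 23 of those 31 genes, or 26 of their 34 promoters. Over all measured members with a promoter it was in 68 of 105 genes, or 75 of 115 promoters. The promoters of Aspm at chr1:139454643-139454802 (plus strand), Cenpf at chr1:189688057-189688216 (minus strand) and Kif20b at chr19:34922228-34922387 (plus strand) are shown, with TTTGAA in capitals, because in each the string lies just past the start site, at the first base given as 7, 3 and 8 counted from the start.
Aspm: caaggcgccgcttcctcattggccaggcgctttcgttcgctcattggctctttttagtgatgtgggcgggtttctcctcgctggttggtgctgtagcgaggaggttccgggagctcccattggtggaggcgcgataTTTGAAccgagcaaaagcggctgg
Cenpf: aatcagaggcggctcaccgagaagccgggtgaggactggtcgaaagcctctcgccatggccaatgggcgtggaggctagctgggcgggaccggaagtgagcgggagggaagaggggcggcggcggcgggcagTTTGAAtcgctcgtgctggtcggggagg
Kif20b: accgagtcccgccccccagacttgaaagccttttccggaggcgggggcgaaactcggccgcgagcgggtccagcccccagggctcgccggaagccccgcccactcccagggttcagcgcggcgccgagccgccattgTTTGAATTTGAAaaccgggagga

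The machinery that makes and removes proteins was near vehicle. Of 67 cytosolic ribosomal proteins, 71 mitochondrial ones, 51 ribosome biogenesis genes, 43 translation factors, 47 proteasome subunits and 46 splicing factors, 0 were past 1 or passed the limma test. Their medians were 0.02, 0.10, -0.02, 0.02, 0.13 and -0.01. Proteasome subunits leaned up, with 35 of 47 higher, in differences no larger than 0.56, beside 11620 of 22180 genes. Above both vehicle arrays lay 32 of the 47, beside 8665 of all genes. RMA brings the arrays to similar distributions, so a change common to most genes may not show; the array medians as deposited lay between 5.02 and 5.06.

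**Figure D4:**
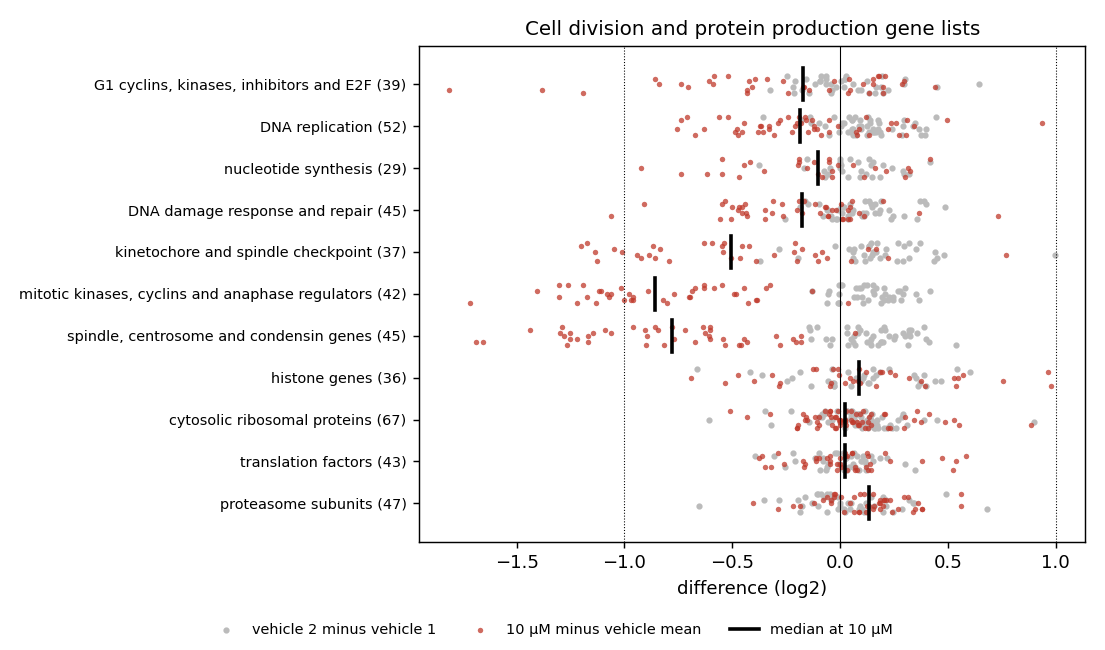
Differences on a log2 scale for every measured member of 11 lists of cell division and protein production, with the number of members in brackets. Red points are 10 µM minus the vehicle mean, grey points vehicle 2 minus vehicle 1 and black bars the medians, at -0.86, -0.78 and -0.50 for the mitotic, spindle and kinetochore lists and at -0.19 for DNA replication; dotted lines mark -1 and 1.

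Classes of sensing receptors differed in how many members passed the test. Of 39 Fc receptors, lectins and phagocytic receptors, 1 rose and 1 fell, with a median of -0.02: Fcgr1, the high-affinity IgG receptor, rose by 2.37 and Clec7a, the beta-glucan receptor, fell by 1.67. Of 25 genes of toll-like receptors and their signalling, 17 were lower, with a median of -0.27, and 5 fell. Tlr7 and Tlr13, endosomal receptors for single-stranded and bacterial ribosomal RNA, read 7.99 and 8.14, and 6.91 and 7.20, in vehicle, against 6.48 and 5.45 at 10 µM and 7.93 and 7.26 at 20 µM. Tlr6, a partner of Tlr2 for lipopeptides, read 7.47 and 7.0, then 5.52 and 6.53. Cd180, a homologue of Tlr4 that tempers its signalling, read 9.29 and 9.75, then 7.39 and 9.88. In all 4 the 10 µM array was the lowest by more than the vehicle arrays differed. Cd14, the lipopolysaccharide co-receptor, was 1.16 lower without passing the test. Ticam2, the adaptor TRAM, and Irak2, a kinase of the pathway, went the other way, with 0.60 and 0.56.

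Chemoattractant receptors that fell were C3ar1 for the complement fragment C3a, Cysltr1 for leukotrienes, Gpr183 for oxysterols and Ccr1 for chemokines. C3ar1 read 9.39 and 9.82 in vehicle, 7.38 at 10 µM and 9.98 at 20 µM, and Cysltr1 read 8.99 and 9.10, then 6.67 and 8.73. Gpr183 read 7.87 and 8.27, then 6.10 and 8.27. These 4 were the only ones past 1 of 23 in the list, whose median was -0.04. At 10 µM Ccr1, like Il18rap described next, read below the median of all values, so its difference can be understated. P2ry6, the receptor for UDP that prompts phagocytosis, read 7.28 and 7.37 in vehicle, 5.51 at 10 µM and 7.40 at 20 µM, while P2ry12, the ADP receptor of resting microglia, was at 4.44 and 4.82 in vehicle and 4.40 at 10 µM, below the median of all values. Of 30 chemokine genes, 0 were past 1, with a median of 0.02.

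Of 44 interleukin and growth factor receptors, 2 rose and 3 fell, with a median of -0.09. Il10ra, the interleukin 10 receptor, was the lowest, at 8.84 and 8.76 in vehicle, 6.08 at 10 µM and 8.82 at 20 µM. Il6ra, the interleukin 6 receptor, read 8.67 and 8.35 in vehicle, 6.89 at 10 µM and 8.23 at 20 µM, and Il18rap, a subunit of the interleukin 18 receptor, read 6.39 and 6.79, then 4.75 and 7.03. In contrast Fas, the death receptor, read 5.66 and 5.99 in vehicle, 7.58 at 10 µM and 6.04 at 20 µM, and Cd40, a co-stimulatory receptor, read 6.41 and 6.34, then 7.55 and 6.40. Among 30 inhibitory and paired receptors 1 rose and 4 fell: Cd274, the ligand PD-L1, read 8.32 and 8.34, then 9.71 at 10 µM and 8.31 at 20 µM, whereas the activating receptor Cd300lb read 8.15 and 8.69, then 6.69 and 8.68. Ceacam1, Havcr2 (TIM-3) and Vsir (VISTA), which restrain immune cells, fell by 1.38, 1.37 and 1.08. For Havcr2 the 20 µM array, at 6.08, was also below the vehicle values of 7.20 and 6.77.

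Cytokine genes split evenly. Of 30 measured, there were 15 above and 15 below vehicle, and the median was 0.00; 3 rose and 3 fell. The widest difference was that of Il23a, which rose by 2.38 (SE 0.16), with 8.97 at 10 µM and 6.62 at 20 µM. The list held pairs from the same family that moved apart. Il1a read 7.32 and 7.65 in vehicle, 9.03 at 10 µM and 7.31 at 20 µM, a rise of 1.55 (SE 0.19), while Il1b read 6.54 and 6.86, then 5.28 and 6.87; it fell by 1.42 (SE 0.18). Il1rn, the receptor antagonist of both, read 7.42 and 7.77, then 6.36 and 8.0. Tnfsf13b, the B-cell survival factor BAFF, fell by 1.21, and Il15 and Il18 had differences of -0.90 and -0.80 without passing the test. Tnf rose by 1.53, and its 20 µM value of 7.75 also lay above the vehicle values of 6.88 and 7.28. Genes of the NF-kB pathway also went both ways. Nfkbie rose by 1.33 and Nfkbiz was 1.08 higher, while Tnip3 was 1.46 lower with vehicle arrays 0.83 apart. Neither Nfkbiz nor Tnip3 passed the test.

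Effector genes also divided. Nos2, the inducible nitric oxide synthase, read 8.68 and 8.72 in vehicle, 7.43 at 10 µM and 8.43 at 20 µM, whereas Gch1, the first enzyme in making its cofactor, read 7.71 and 7.80, then 8.83 and 7.73. Casp4, the caspase (caspase 11) that senses intracellular lipopolysaccharide, read 7.87 and 8.04, then 9.60 and 8.10. Nlrp3, the inflammasome sensor, was 1.24 lower with vehicle arrays 0.44 apart and did not pass the test. Saa3, an acute-phase apolipoprotein, rose by 1.30 and Ifitm6 by 1.55. The interferon-stimulated genes as a list had a median of -0.10 over 43 members, with 1 that rose and 0 that fell, and genes of class I antigen presentation had 0 past 1 of 24. The class II and co-stimulation list had 2 genes that rose, Cd40 and Cd274. In it Rfx5, a factor for the class II promoter, fell by 1.07, and H2-Ab1, a class II chain, was 1.22 lower without passing the test. Of 27 genes of alternative activation and cytokine signalling suppressors, 0 were past 1.

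**Figure D5:**
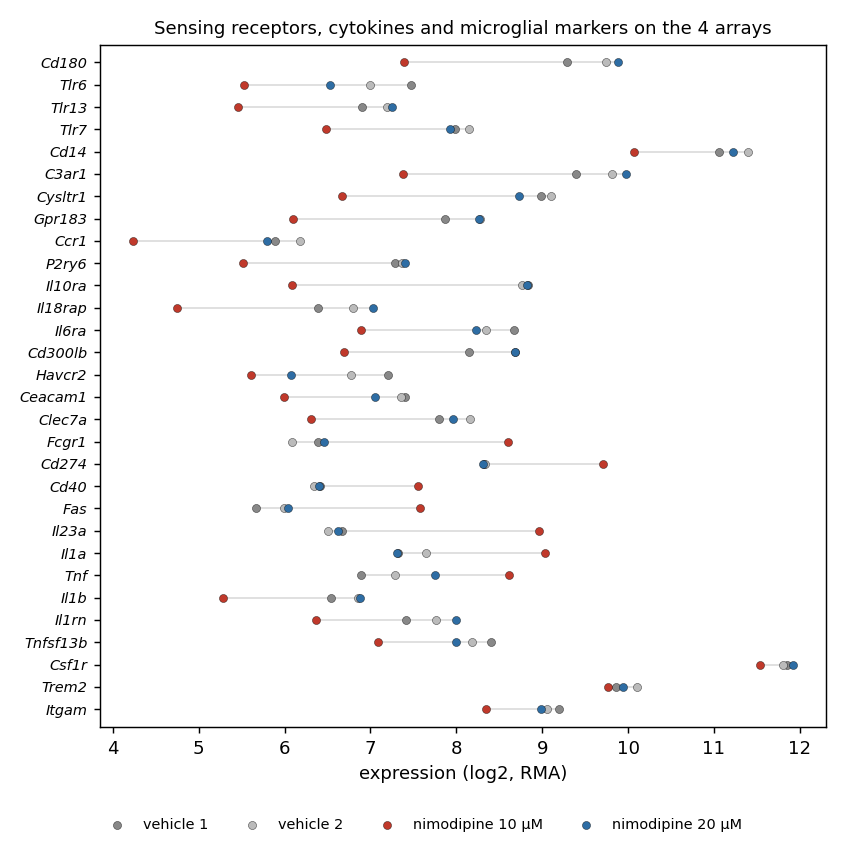
Expression on a log2 scale of 30 receptors, cytokines and microglial markers on the 4 arrays, 1 point per array. The red 10 µM point lies left of the rest for receptors such as Tlr7, at 6.48, and right of them for Fcgr1, Cd274, Cd40, Fas, Il23a, Il1a and Tnf, and the points of the markers Csf1r and Trem2 lie close together.

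The genes of calcium entry, the process that the drug acts on, were near vehicle. Of 25 subunits of voltage-gated calcium channels, 0 were past 1, and the median was -0.01. Over all genes only 0.514% were higher and 1.06% lower by as much, so 0 in a short list says little, here and elsewhere. In level, 14 of the 25 lay at or above the median of all deposited values. The pore-forming L-type subunits read low on all arrays: Cacna1c was at 4.67 and 4.44 in vehicle and 4.48 at 10 µM, Cacna1s at 5.18, 5.14 and 5.20, and Cacna1f at 5.26, 5.30 and 5.24. Cacna1d was 5.80 and 5.47 in vehicle, 5.09 at 10 µM and 5.25 at 20 µM, a difference of -0.54 (SE 0.18) that did not pass the test. All these lie near the median of all deposited values, 5.04, and without a detection call it cannot be said that they are expressed. Of 32 genes of store-operated entry, calcium stores and pumps, 0 were past 1, with a median of 0.00 and differences from -0.76 for Tpcn1 to 0.53 for Tmbim6.

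Some genes linked to the calcium-dependent phosphatase calcineurin, and to the NFAT transcription factors it activates, were lower. Of 29 genes of calmodulin, calcineurin and NFAT signalling, 21 were lower, with a median of -0.11, and 3 fell. At 20 µM 22 of the 29 were lower, with a median of -0.12 and 0 past 1. Over all 22180 genes, 11237 were lower at 20 µM and 10556 at 10 µM. Both doses were read against the same vehicle mean, so the 2 leans of the list are not independent. The difference of vehicle 2 from vehicle 1 had a list median of -0.04. Rcan1, a calcineurin inhibitor that NFAT induces, read 9.03 and 9.22 in vehicle, 7.42 at 10 µM and 9.01 at 20 µM, a 3.26-fold fall. Nr4a1, an orphan nuclear receptor, read 7.73 and 7.38, then 6.14 and 7.12, and Mef2c, a calcium-responsive factor, read 8.66 and 8.57, then 7.28 and 8.46, with a dimmer probe set at -0.62. Ppp3cc, a catalytic subunit of calcineurin, was 0.68 higher without passing the test. Of 35 immediate early genes, 20 were lower, with a median of -0.05, and Btg2, Nr4a1 and Ier3 fell. Ier3 read 10.57 and 10.40 in vehicle, 8.76 at 10 µM and 10.25 at 20 µM. Klf2 and Zfp36, a transcription factor and an mRNA decay factor, had differences of -0.84 and -0.79, and Klf4 and Myc were 0.53 and 0.44 higher.

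Some signalling genes outside the lists, named here after their values were seen, fell with a close vehicle pair. Ptpn22, a phosphatase that limits Src-family kinases, read 10.49 and 10.50 in vehicle, 8.71 at 10 µM and 10.64 at 20 µM. Csk, the kinase that switches Src-family kinases off, read 8.83 and 8.87, then 7.46 and 8.79, and Ptpn6, the phosphatase SHP-1, read 10.57 and 10.52, then 9.20 and 10.65. All 3 restrain receptor signalling in blood cells, and in each only the 10 µM array was low. Rgs2, which shortens G-protein signals, fell by 1.68 (SE 0.15), with a dimmer probe set at -0.10, and Nr3c1, the glucocorticoid receptor, fell by 1.15 (SE 0.15). Dusp4, a MAP kinase phosphatase, rose by 1.21 (SE 0.15).

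In lipid, mitochondrial and transport classes single genes passed the test. Of 76 subunits of the respiratory chain and ATP synthase, 51 were higher, with a median of 0.11, and Cox6a2, an isoform of muscle and interneurons, was alone past 1. In the fatty acid oxidation list the median was -0.15, with Acot2 and Eci2, an isomerase of unsaturated fatty acids, rising and Cpt1a, which admits fatty acids to the mitochondrion, 1.16 lower without passing the test. Cholesterol synthesis genes had a median of 0.13, beside 0.17 at 20 µM and a vehicle pair difference of 0.20, so the 10 µM array did not stand apart in this list. Of 360 solute carriers, 10 were higher by 1 or more and 3 lower, and 10 rose and 7 fell. The widest was Slc2a1, described above, and next came Slc46a3, a lysosomal carrier, which read 6.18 and 6.08 in vehicle, 7.84 at 10 µM and 6.19 at 20 µM, and Slc43a3, a purine base transporter, which read 9.08 and 9.31, then 10.75 and 9.25. Potassium channels, 89 genes, had 0 past 1. In the apoptosis list Bnip3 and Bmf, a BH3-only protein, fell, and Fas and Bcl2, the survival protein, rose; the second probe set of Bcl2 differed by 0.61.

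No marker list had a member past the threshold. Of 28 microglial markers 0 were past 1 and 0 passed the test, with a median of -0.04. Csf1r, the growth factor receptor of the lineage, read 11.85 and 11.80 in vehicle, 11.54 at 10 µM and 11.92 at 20 µM, and Trem2, a lipid-sensing receptor, read 9.86, 10.11, 9.76 and 9.94. The widest were Itgam and Runx1, at -0.77 and -0.71. Markers of microglia in tissue, among them Tmem119, P2ry12 and Sall1, were below the median of all values on average. No list of general macrophage genes was made, so whether such genes go with the labelled cell type was not tested. At or above that median lay 18 of 28 microglial markers, but also 10 of 11 oligodendrocyte markers, so this level alone does not single out a cell type. It was 4 of 12 for astrocytes, 5 of 13 for neurons, 7 of 15 for fibroblasts and endothelium and 2 of 15 for lymphocytes and granulocytes. Markers of astrocytes, neurons, oligodendrocytes, fibroblasts and endothelium, and of lymphocytes and granulocytes had 0 past 1, with list medians between -0.02 and 0.11.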

How the data were processed

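Total RNA from N9 cells was labelled with the WT PLUS kit and hybridised to Affymetrix arrays, per the labels' protocols. The values used are the deposited log2 expression values, normalised with RMA in Expression Console 1.2.1.20, per the submitters' processing notes. They carry no detection calls, and with 4 arrays their number limits the precision. Of 41345 probe sets, 23521 had 1 gene symbol, 1814 had several and 16010 were unnamed here; the probe set with the highest mean over the 4 arrays stood for each of 22180 genes. Differences are the 10 µM array minus the mean of the vehicle arrays. limma 3.58.1 in R 4.3.3 was fitted to the 3 arrays of the comparison with Benjamini-Hochberg adjustment and was tested on simulated data. The 87 gene lists were matched by symbol. Named genes were drawn from the 20 highest and 20 lowest with a vehicle gap under 50% of the difference and a higher side at or above 5.04, up to 8 members of each list (4 of a symbol family) by size, up to 2 against its median, the pore-forming L-type channel genes and any cell type marker; others are marked in the text. Genes, lists and symbol updates were chosen with earlier results of these data known. Promoter sequences are from RefSeq, GRCm38.p6. Alternatives were another threshold, normalisation, filter, probe set rule and limma trend, and leaving out each vehicle array.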

Additional observations from a re-analysis of the deposited data

Results flagged for a closer look

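Probe sets that carry several gene symbols were used in no comparison. Of 1814 such probe sets, 27 differed from vehicle by 1 or more at 10 µM, 14 higher and 13 lower, against 1 for the vehicle pair and 3 at 20 µM. Among 16010 unnamed probe sets 603 differed by as much within the vehicle pair, 566 at 10 µM and 441 at 20 µM. The vehicle pair is a difference of single arrays, while each dose was read against the vehicle mean, so noise alone makes the pair's count larger. The 603 therefore cannot decide whether the 10 µM array was within the vehicle spread. On the same scale, the count was higher at 10 µM than at 20 µM.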

How the results depend on the processing

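At a threshold of 1.5-fold in place of a doubling, 531 genes were higher and 970 lower. The limma fit with an intensity trend called 384 rises and 785 falls, with dim genes left out 400 and 882, after loess between arrays 188 and 370, and with equal medians 177 and 477; over all probe sets 146 fell. Leaving out each vehicle array in turn, the median of the cholesterol synthesis and uptake list ran from -0.022 (without vehicle replicate 1) to 0.25, in place of 0.13. The members past 1 then numbered 1 to 2 for higher cytosolic aminoacyl-tRNA synthetases, 0 to 1 for lower amino acid transporters, 0 to 1 for higher kinetochore and spindle checkpoint genes and 0 to 1 for higher DNA replication genes. Of 22 called genes with several probe sets, 3 had probe sets of opposite sign. No paired analysis was possible because the groups compared share fewer than 2 replicate numbers. The limma fit without a vehicle array leaves no residual degree of freedom and was not run. The cause of these differences was not tested.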
